A study of Mus musculus with 4 samples.

Results

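Nuclear genes for the subunits of the mitochondrial respiratory chain and ATP synthase were taken from the deposited gene tables by their symbols. The rule took Nduf followed by a, b, c, s, v or ab and a digit, Sdha to Sdhd, symbols starting with Uqcr, Cyc1, Cox4 to Cox8, and symbols starting with Atp5, and left out the Ndufaf assembly factors. It found 86 of 22328 listed genes. By complex these were 36 of complex I, 4 of complex II, 9 of complex III, 20 of complex IV and 17 of complex V. Ndufa4 and Ndufa4l2 were placed in complex IV, where the Ndufa4 protein is known to reside despite its name. Atp5s and Atp5sl were kept in complex V by their symbols only, although Atp5sl is known to act in complex I assembly, so the tallies of complex V are not limited to ATP synthase subunits.

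Poly(A)-selected RNA was sequenced from 4 mouse samples, each the only library of its group. F1m-CON and F1m-GCS are hippocampi of mice whose mothers ate 1.1 g/kg or 5 g/kg choline chloride, the higher dose running from embryonic day 9 up to birth. Both sets of young then ate a basal diet and were recorded for behaviour tests at the age of 2 months. No mutation, transgene or strain is given for them in the sources used here, and it is not given whether a hippocampus library is 1 animal or a pool. HT22_CON and HT22_SUP are cultures of HT22, an immortalised line derived from mouse hippocampal neurons, kept 48 h with 5 µM or 70 µM choline chloride in high-glucose medium with serum.

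The respiratory chain moves electrons from NADH (through complex I) and succinate (through complex II) by way of ubiquinone to complex III, cytochrome c and complex IV, where oxygen is reduced. Complexes I, III and IV pump protons across the inner mitochondrial membrane, and complex V, the ATP synthase, uses the returning protons to make ATP. Most subunits are encoded in the nucleus and imported, a few are encoded by mitochondrial DNA, and several complex IV subunits exist as isoforms used in muscle, lung, testis or low oxygen. Neurons rely on this chain for the ATP that ion pumping and synaptic transmission consume.

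The 4 libraries held from 13192007 (HT22_SUP) to 31175015 (F1m-CON) reads in genes, which were from 63.1% to 79.4% of uniquely mapped reads. The 86 genes took 0.962% of the gene reads in F1m-CON, 0.887% in F1m-GCS, 1.22% in HT22_CON and 1.26% in HT22_SUP. Each of the 13 subunits encoded by mitochondrial DNA had 0 reads in every library, so nuclear and mitochondrial subunits could not be set side by side. The hippocampus label was met by neuronal markers, whose 8 genes summed to 9986 and 9936 CPM (counts scaled to a common total of reads in genes) in F1m-CON and F1m-GCS. The same 8 genes summed to 76.2 CPM in HT22_CON and 193 in HT22_SUP, and 644 genes that were far higher in hippocampus stood at 0.336% and 0.801% of their hippocampal level in those libraries. Because each group is 1 library, a ratio below is a difference between libraries, without a replicate check. The interval in parentheses after each log2 ratio is an exact 95% interval that covers counting error only.

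Of the 86 genes, 70 matched an entry of the RefSeq promoter table (GRCm38.p6), which holds 250 bases before and 50 bases after a transcription start. Binding motifs of factors known to act on respiratory chain genes were searched on both strands in these windows. The motif GCATGCGC of NRF1 was present in 14.3% of the members, against 5.82% of 10404 measured genes with an entry and 3.05% of all 27025 genes in the table. The motif CCGGAAG, bound by ETS factors such as GABP, was present in 22.9% of the members, 18.2% of measured genes and 9.93% of all genes. The motif AAGATGGCG of YY1 was present in 11.4%, 3.26% and 1.64%, in the same order. At least 1 of the 3 was found in 28 of the 70 members, 40% against 25% of measured genes. A match is a description of the letters and not a measured binding site. The 100 bases before the start of 4 members, each from a different complex, are shown because they hold such a match, here in capitals. They are chr4:140961171-140961270 (+ strand), chr10:80406822-80406921 (- strand), chr17:56717662-56717761 (+ strand) and chr5:108434400-108434499 (- strand). In Ndufa11 and Atp5k the NRF1 motif matched on both strands in overlapping positions, and in Uqcr11 the capitals mark the ETS motif.
Sdhb: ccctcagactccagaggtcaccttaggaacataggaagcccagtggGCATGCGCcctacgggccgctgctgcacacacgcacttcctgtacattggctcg
Uqcr11: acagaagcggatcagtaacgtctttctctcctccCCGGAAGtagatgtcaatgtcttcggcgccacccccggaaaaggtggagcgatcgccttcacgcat
Ndufa11: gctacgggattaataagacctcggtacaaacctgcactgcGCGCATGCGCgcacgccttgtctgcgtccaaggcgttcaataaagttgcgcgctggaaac
Atp5k: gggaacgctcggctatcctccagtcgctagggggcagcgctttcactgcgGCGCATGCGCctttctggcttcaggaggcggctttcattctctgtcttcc

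The same window separated some tissue isoforms from their widely used partners by their CG dinucleotides. The whole 300-base window held 19 CG dinucleotides in Cox8a and 2 in Cox8b, 20 in Cox7a2 and 7 in Cox7a1, and 17 in Cox6b1 and 10 in Cox6b2. The pair Cox7b and Cox7b2 went the other way, with 5 and 10. The median was 19 in the 70 members and 22 in the measured genes, so the members as a group were not richer in CG than other measured genes. The 100 bases before the start of these 4 pairs are printed with each CG in capitals, because the levels of the pairs are compared next. They lie at chr19:7217617-7217716 (- strand) and chr7:140900447-140900546 (- strand), chr9:79759854-79759953 (- strand) and chr7:30184071-30184170 (+ strand), chr7:30626115-30626214 (- strand) and chr7:4753095-4753194 (- strand), and chrX:106015600-106015699 (+ strand) and chr5:71548206-71548305 (- strand).
Cox8a: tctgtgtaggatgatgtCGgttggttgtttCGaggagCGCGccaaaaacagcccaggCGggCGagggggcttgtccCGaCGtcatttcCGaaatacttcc
Cox8b: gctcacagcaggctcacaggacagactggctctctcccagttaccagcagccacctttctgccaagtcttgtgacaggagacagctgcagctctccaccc
Cox7a2: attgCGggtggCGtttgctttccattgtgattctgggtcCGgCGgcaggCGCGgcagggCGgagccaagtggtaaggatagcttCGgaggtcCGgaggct
Cox7a1: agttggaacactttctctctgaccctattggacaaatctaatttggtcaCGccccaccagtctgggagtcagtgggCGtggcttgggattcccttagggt
Cox6b1: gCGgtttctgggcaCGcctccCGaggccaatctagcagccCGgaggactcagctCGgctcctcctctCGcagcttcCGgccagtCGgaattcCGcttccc
Cox6b2: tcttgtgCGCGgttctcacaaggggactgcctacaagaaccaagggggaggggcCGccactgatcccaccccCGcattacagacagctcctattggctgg
Cox7b: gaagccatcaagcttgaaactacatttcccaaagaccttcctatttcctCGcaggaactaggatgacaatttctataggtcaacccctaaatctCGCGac
Cox7b2: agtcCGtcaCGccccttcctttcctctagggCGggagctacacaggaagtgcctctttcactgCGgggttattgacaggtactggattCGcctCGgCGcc

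Levels between genes were compared per length, as the authors' RPKM, which scales reads by coding length and by uniquely mapped reads. Most members were among the most abundant transcripts. The 10% of listed genes with the highest RPKM included 60 of the 86 in F1m-CON, 61 in F1m-GCS, 59 in HT22_CON and 63 in HT22_SUP. Their median was 131 RPKM in F1m-CON, 121 in F1m-GCS, 135 in HT22_CON and 114 in HT22_SUP, while the median of all listed genes ranged from 0.918 to 3.82. The highest member in every library was Cox8a, a small membrane subunit of complex IV, at 834, 738, 1073 and 1072 RPKM in the order F1m-CON, F1m-GCS, HT22_CON and HT22_SUP. This order of libraries is kept for sets of 4 values below.

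**Figure D1:**
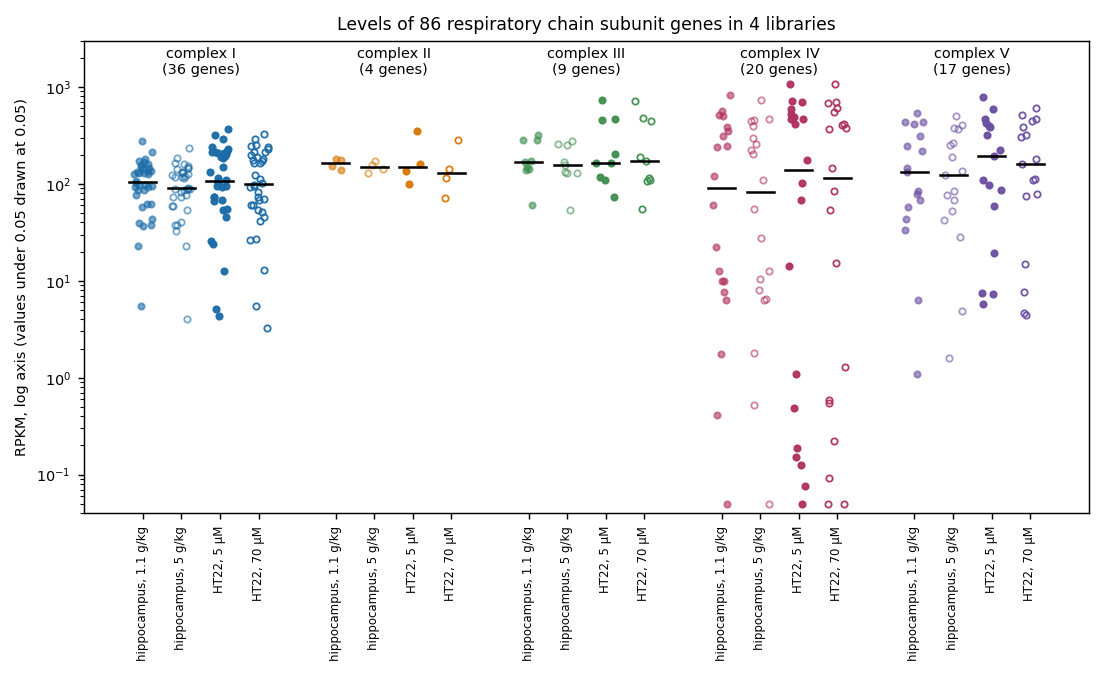
RPKM of the 86 genes on a log axis, by complex and library. Each point is 1 gene, filled for the lower and open for the higher choline level, and the black bar is the median. The median of complex IV is between 82.2 and 140 RPKM, and several of its 20 genes lie below 2 RPKM in the HT22 libraries.

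Within complex I the top member was Ndufb9, an accessory subunit of the membrane arm, in both hippocampus libraries, at 275 and 235 RPKM. In both HT22 libraries it was Ndufa2, an accessory subunit of the matrix arm, at 366 and 330 RPKM. The 4 genes of complex II lay close together in hippocampus, from 139 to 180 RPKM in F1m-CON, with Sdha, the flavin-bearing catalytic subunit, highest. In HT22 they spread from 100.4 to 348 RPKM in HT22_CON, with the membrane anchor Sdhd highest and Sdha lowest. In complex III the small subunit Uqcr10 led in hippocampus at 316 and 276 RPKM, and the hinge protein gene Uqcrh led in HT22 at 727 and 711. In complex V the catalytic beta subunit Atp5b led in hippocampus at 536 and 504 RPKM, and Atp5g3, a gene for the membrane ring subunit c, led in HT22 at 779 and 611.

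Low levels of some members have to be read with their genomic copies. By alignment of coding sequences to the annotated transcripts (GENCODE M21, GRCm38), 23 of the 86 genes had a copy at another locus with at least 95% identity over at least 100 bases. Reads that fit more than 1 place are not counted under a mapping quality minimum, so the levels of these 23 genes are uncertain. Their median was 67.5 RPKM in F1m-CON, against 139 for the 63 genes without a copy. Atp5l, a membrane subunit of ATP synthase with 9 such copies, was counted at 77, 59, 58 and 50 reads, while its listed copy Gm10221 was counted at 3506, 2977, 2479 and 2033. Ndufb4, an accessory subunit of complex I with 2 copies, was counted at 84, 60, 50 and 45 reads. Atp5h, a stalk subunit of ATP synthase, was counted at 1287, 1260, 1334 and 1150 reads and its copy Gm10250 at 4747, 4135, 5025 and 3996.

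The tissue isoforms were compared within each pair. The isoforms used in most tissues made up nearly all of each pair in hippocampus: Cox4i1 held 99.7% of the summed RPKM of Cox4i1 and Cox4i2 in F1m-CON, Cox6a1 97.6% of its pair, Cox6b1 98.1%, Ndufa4 98.3% and Cox8a 98.8% of the Cox8 group. Cox4i2, the isoform known from lung and low oxygen, was counted at 36, 36, 1 and 1 reads. Cox6a2, known from heart, skeletal muscle and fast-spiking interneurons, was counted at 145, 143, 8 and 8 reads. Cox6b2, known from testis, was counted at 94, 127, 1 and 0 reads. All 3 were low but present in both hippocampus libraries and at 8 reads or fewer in both HT22 libraries.

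The other muscle isoforms had the same distribution. Cox7a1 was counted at 61, 59, 3 and 3 reads, and Cox8b at 83, 65, 1 and 1. Ndufa4l2, a paralogue of Ndufa4 known to be induced in low oxygen, was counted at 103, 66, 1 and 3 reads. Cox8c, another testis isoform, had 0 reads in all 4 libraries, which allows up to 3 reads or 0.0962 CPM in F1m-CON and 0.227 in HT22_SUP. Summed over the 2 libraries of each source and scaled together, hippocampus stood above HT22 by 10.1-fold (95% counting interval 6.12 to 17.9) for Cox6a2, 11.2-fold (5.01 to 31.2) for Cox7a1, 20.2-fold (5.40 to 170.2) for Cox4i2, 23.7-fold (9.10 to 88.1) for Ndufa4l2, 41.6-fold (11.3 to 347) for Cox8b and 124-fold (22.1 to 4927) for Cox6b2. The 5 markers of muscle summed to 9.01 and 8.76 CPM in the hippocampus libraries and to 0.109 and 0.455 in HT22. Nearly all of the hippocampal sum was Acta1, at 257 and 248 reads, while Ckm, Myh1, Myh4 and Tnnt3 had 12 reads or fewer in each library. In whole tissue, fewer cells of a type and less RNA per cell cannot be told apart.

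Cox7b2 was the exception among these isoforms. It was counted at 4, 5, 645 and 444 reads, or 0.128, 0.165, 35.2 and 33.7 CPM, so that HT22 exceeded hippocampus 215-fold (113 to 472). Its partner Cox7b, the isoform of most tissues, was counted at 2322, 2064, 2881 and 2061 reads. Cox7b has 2 near-identical copies, which together cover 100% of its coding sequence, while Cox7b2 has none, so reads of Cox7b may be undercounted and the share of Cox7b2 in the pair is uncertain. Cox7b2, known from testis, thus made up 17.9% of the summed RPKM of the pair in HT22_CON and 17.4% in HT22_SUP, against 0.168% and 0.236% in F1m-CON and F1m-GCS. Between the HT22 libraries the log2 ratio of Cox7b2 was -0.05 (-0.23 to 0.12), an interval that spanned 0. The coding sequences of Cox7b and Cox7b2 were identical at 164 of 234 aligned bases (70.1%). The coding sequences from GENCODE M21 are printed with the letters that differ or have no partner in capitals. The gene Cox7b spans chrX:106015700-106022450 (+ strand) and Cox7b2 spans chr5:71442824-71548205 (- strand).
Cox7b: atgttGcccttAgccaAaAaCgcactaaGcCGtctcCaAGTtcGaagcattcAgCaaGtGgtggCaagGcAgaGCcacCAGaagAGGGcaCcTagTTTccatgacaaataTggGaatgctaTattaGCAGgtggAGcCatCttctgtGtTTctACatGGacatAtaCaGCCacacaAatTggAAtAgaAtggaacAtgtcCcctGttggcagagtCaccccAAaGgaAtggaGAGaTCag
Cox7b2: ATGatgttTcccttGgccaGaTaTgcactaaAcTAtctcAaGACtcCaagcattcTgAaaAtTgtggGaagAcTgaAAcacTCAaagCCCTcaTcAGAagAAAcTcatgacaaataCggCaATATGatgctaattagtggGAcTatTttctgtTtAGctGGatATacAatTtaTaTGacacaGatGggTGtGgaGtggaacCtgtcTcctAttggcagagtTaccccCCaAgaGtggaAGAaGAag

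**Figure D2:**
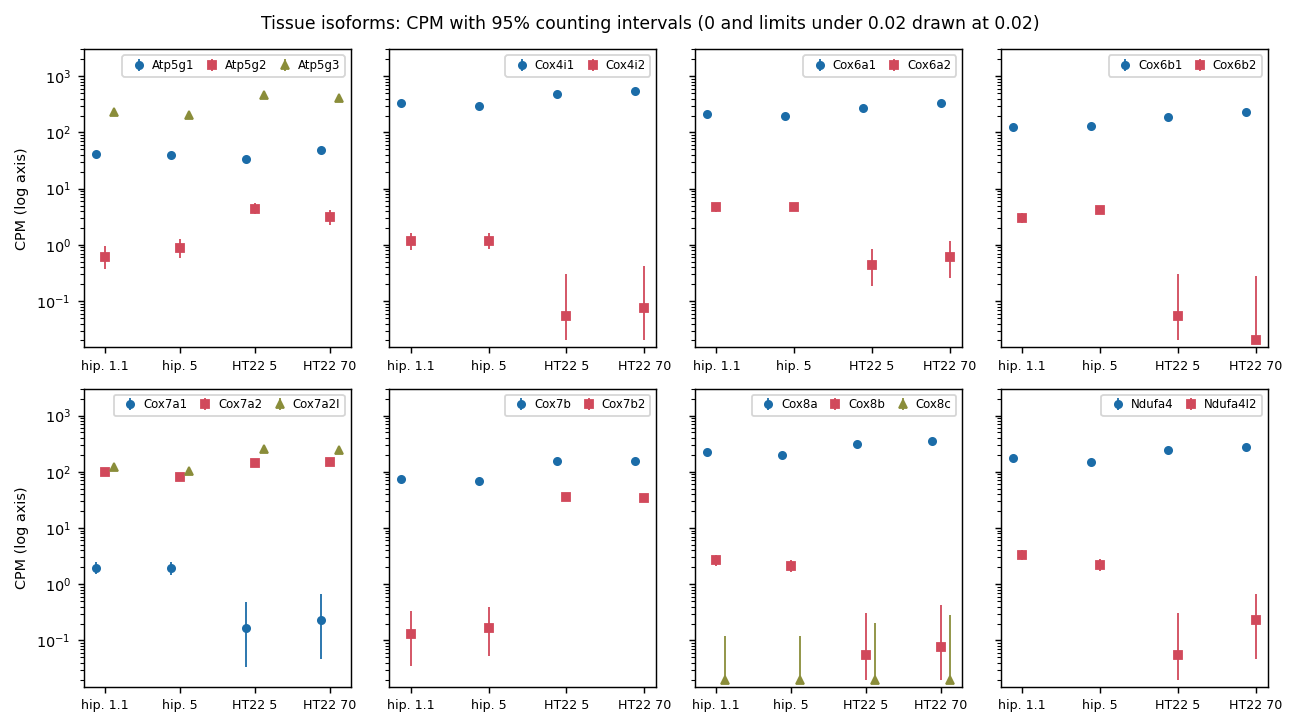
Scaled counts (CPM), on a log axis, for 8 isoform groups in the 4 libraries (hip., hippocampus with maternal diet in g/kg, HT22 with choline chloride in µM), with 95% counting intervals as bars. Cox7b2 is at 0.128 and 0.165 in the hippocampus libraries and at 35.2 and 33.7 in the HT22 libraries, while Cox4i2, Cox6a2, Cox6b2, Cox7a1, Cox8b and Ndufa4l2 are lower in HT22.

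Among the other groups with several genes, Cox7a2 and its relative Cox7a2l, which joins complexes III and IV in supercomplexes, shared the Cox7a group almost evenly. Cox7a2l held 43.0%, 43.5%, 52.8% and 50.1% of its RPKM, and has a near-identical copy over part of its coding sequence. The Atp5g1, Atp5g2 and Atp5g3 genes encode the same mature subunit c behind different import sequences. Atp5g3 held 84.6%, 82.8%, 92.2% and 88.5% of their summed RPKM and Atp5g1 held 15.2%, 16.8%, 6.97% and 10.9%. Atp5g2 was counted at 19, 27, 81 and 41 reads, but it and Atp5g1 have near-identical copies. Atp5s, known as coupling factor B, was counted at 799, 653, 88 and 59 reads. Atp5sl, named for its likeness to Atp5s and known to act in complex I assembly, was counted at 1323, 1255, 374 and 240 reads.

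Between the cell line and the tissue, the median log2 ratio of the 84 members with at least 50 reads in 1 library was 0.40, against -0.13 for 14012 genes. Within length groups of genes the difference shrank, since the members' median above other genes of like coding length was 0.10. A difference of at least 2-fold in both HT22 libraries against both hippocampus libraries was called for fewer members than genes by share. Lower by this rule were 9 members, 10.7% of the 84 (34.2% of all genes): Cox6a2, Cox6b2, Cox7a1, Cox8b, Ndufa4l2, Ndufs5, Atp5s, Atp5sl and Uqcrc2. Higher were 5 members, 5.95% (24.3% of all genes): Cox7b2, Atp5g2, Atp5j2, Ndufa2 and Uqcrh. Of the lower members, Uqcrc2, a core protein of complex III, was counted at 9010, 8127, 2535 and 1558 reads, 2.35-fold (2.27 to 2.44) higher in hippocampus. Ndufs5, an accessory subunit of complex I with a copy over its whole coding sequence, was counted at 547, 466, 35 and 22 reads. Of the higher members, Uqcrh was counted at 3013, 2696, 4930 and 4014 reads, 2.79-fold (2.70 to 2.88) higher in HT22. Ndufa2 was counted at 1848, 1677, 2755 and 2071 reads and Atp5j2, the membrane subunit f of ATP synthase, at 2305, 1933, 3129 and 2585.

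The first choline comparison asks how the chain differed in the hippocampus of offspring of dams on the higher choline diet. Members were slightly lower in F1m-GCS across all 5 complexes. Members were taken as measured when 1 library of the pair held 50 reads or more. Of 82 such members, 72 had a log2 ratio (F1m-GCS minus F1m-CON) below 0, and the median was -0.11, against -0.004 over 13392 measured genes. For 49 of the 82 the counting interval lay below 0, where 18.8% of all genes did so, and for 3 it lay above 0, where 20.9% of genes did. Summed over all members, the level in F1m-GCS was 0.930 of that in F1m-CON, a log2 ratio of -0.11 (-0.11 to -0.10). Among the 64 members with a mean of at least 1000 reads, 45 had intervals below 0, where 23.7% of the 6740 genes with that mean did, and 1 above, where 26.3% did. The differences were small: 5 members were at least 1.2-fold lower (6.26% of genes), 2 at least 1.2-fold higher (9.97% of genes), and none at least 1.5-fold lower with an interval excluding 0 (0.904% of genes). Of the 86 members, 32 were called lower and 1 higher in the authors' deposited table, whose tests rest on 1 library per group, where 5.91% and 8.32% of the 22328 genes were called.

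**Figure D3:**
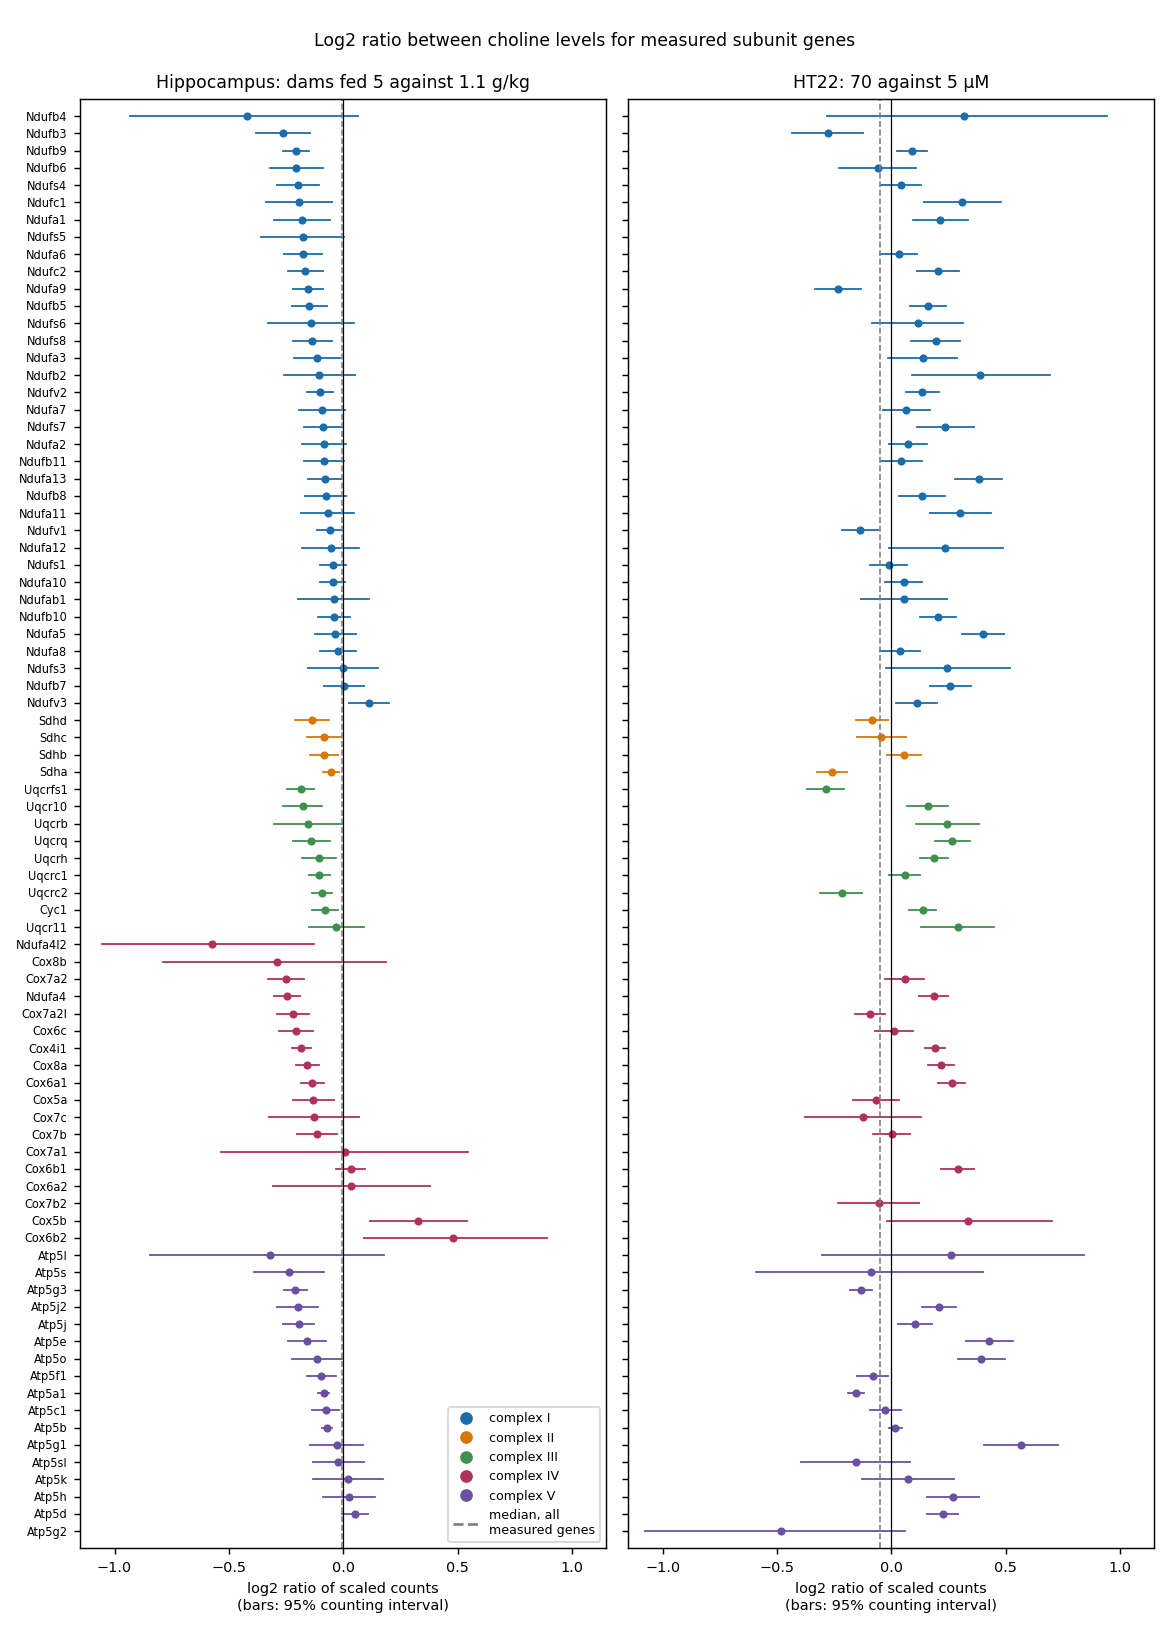
Log2 ratio of scaled counts for measured members, ordered by complex and by its hippocampal ratio, with 95% counting intervals as bars. The dashed line is the median of all measured genes (-0.004 in hippocampus, -0.05 in HT22). Counts are over all measured members, drawn or not. In hippocampus 72 of 82 lie below 0. In HT22 56 of 78 lie above 0 with reads in genes as the scale (the median turns to -0.11 with uniquely mapped reads), and under both scales the members' median stands 0.16 above that of all genes.

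Against genes of like coding length the hippocampal difference was smaller. Members are short, with a median coding length of 420 bases against 1431 for measured genes, and in this pair of libraries short genes of all kinds were lower. In the shortest of 10 length groups all genes had a median of -0.09, where the 57 members among them had -0.14. Set against genes of the same length group, the members' median was -0.05, with 58 of 82 below 0, where 6692 of 13392 genes were by construction. After this correction 26 of the members' intervals lay below 0, but the share of all genes was not computed for it. Set against genes of the same length and GC content the members' median was -0.04. Markers of choroid plexus, a tissue at the ventricle border, moved in the same direction. All 7 were lower in F1m-GCS, with a median of -0.52 and a summed level of 1876 CPM in F1m-CON and 1601 in F1m-GCS, and none was at 0. The 7 microglial markers were all lower too (median -0.14, summed 351 and 316 CPM). The medians of the 8 neuronal, 6 astrocyte and 6 oligodendrocyte markers were -0.02, -0.04 and -0.09, and that of 5 measured markers of hippocampal neurons was 0.05. Those of the 5 endothelial, 4 pericyte and 5 red cell markers were 0.04, -0.005 and 0.09. Their part in the members' ratios was not tested.

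In complex I, the NADH-oxidising entry of the chain, 34 of 36 members were below 0 in hippocampus, with a median of -0.10, and 17 intervals lay below 0. Ndufb9 was counted at 5823 reads in F1m-CON and 4858 in F1m-GCS, a log2 ratio of -0.21 (-0.26 to -0.15). Ndufb3, another accessory subunit of the membrane arm, was counted at 1332 and 1068 reads, a log2 ratio of -0.26 (-0.38 to -0.15), and has a near-identical copy. All 7 core subunits, most of which carry the flavin or iron-sulphur clusters or bind ubiquinone, were below 0, with 5 intervals below 0. Ndufv3, an accessory subunit beside the NADH site, stood apart from the rest of the complex, with 2074 and 2159 reads and a log2 ratio of 0.11 (0.02 to 0.20). Ndufb7, a subunit facing the intermembrane space, was level at 2072 and 2000 reads, a log2 ratio of 0.003 (-0.09 to 0.09).

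All 4 genes of complex II had intervals below 0 in hippocampus, at log2 ratios from -0.14 for Sdhd to -0.05 for Sdha. Sdha was counted at 14102 and 13087 reads, and its interval ran from -0.09 to -0.02. In complex III all 9 genes were below 0, 8 with intervals below 0, and the median was -0.11. Uqcrfs1, the Rieske iron-sulphur protein, was lowest of them, with 4843 and 4099 reads and a log2 ratio of -0.19 (-0.25 to -0.13). Cyc1, the cytochrome that hands electrons to cytochrome c, had 5303 and 4833 reads and a log2 ratio of -0.08 (-0.14 to -0.02).

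Complex IV, cytochrome c oxidase, held both the lowest and the highest members in hippocampus. Its summed log2 ratio was -0.16 (-0.18 to -0.14), against -0.10 for complex I, -0.07 for complex II, -0.11 for complex III and -0.09 for complex V. These sums are not set against genes of like length, and the measured members of complex IV are short, with a median of 261 coding bases. Set against genes of the same length group, the median was -0.04 in complex IV. It was -0.03, -0.04, -0.06 and -0.06 in complexes I, II, III and V, so complex IV was not the lowest. Ndufa4 was counted at 5517 and 4486 reads, a log2 ratio of -0.24 (-0.30 to -0.19), which made its interval the farthest below 0 of all members. Cox7a2 had 3069 and 2485 reads and a log2 ratio of -0.25 (-0.33 to -0.17). Cox7a2l had 3803 and 3146 reads and a log2 ratio of -0.22 (-0.29 to -0.15). The abundant Cox4i1, Cox8a and Cox6a1 were also lower, at -0.18, -0.16 and -0.14, with intervals below 0. Some members of complex IV did not share this direction. Cox6b1, which faces the cytochrome c side, had 3975 and 3917 reads and a log2 ratio of 0.03 (-0.03 to 0.10). Its rare partner Cox6b2 had 94 and 127 reads and a log2 ratio of 0.48 (0.09 to 0.89). Cox5b, the zinc-binding subunit, had 340 and 411 reads and a log2 ratio of 0.33 (0.12 to 0.54). Cox5b has a copy, Gm11273, which covers its whole coding sequence and was listed at 0 reads, so its count is uncertain. Ndufa4l2, with 103 and 66 reads, had a log2 ratio of -0.57 (-1.06 to -0.13). The 4 pericyte markers were mixed, from -0.26 for Kcnj8 to 0.30 for Rgs5, and their part in this ratio was not tested.

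In complex V, 13 of 16 measured members were below 0 in hippocampus, 10 with intervals below 0. Atp5b and Atp5a1, the catalytic beta and alpha subunits and the most deeply counted members, had log2 ratios of -0.07 (-0.09 to -0.05) and -0.08 (-0.11 to -0.06). Atp5b was counted at 33472 and 30675 reads and Atp5a1 at 28369 and 25764. Atp5g3 was lower by more, with 7317 and 6093 reads and a log2 ratio of -0.21 (-0.26 to -0.16). Atp5d, the small delta subunit of the central stalk, was level at 4908 and 4901 reads, a log2 ratio of 0.05 (-0.01 to 0.11). Atp5l, at -0.32, Cox8b, at -0.29, and Ndufb4, at -0.42, were at least 1.2-fold lower on fewer than 100 reads each, and their intervals spanned 0.

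The second choline comparison asks the same of HT22 cells, HT22_SUP against HT22_CON. Here the members stood above other genes, with an incomplete split between small and large subunits. The median log2 ratio (HT22_SUP minus HT22_CON) of 78 measured members was 0.11 against -0.05 for 10854 genes, a gap of 0.16. Scaling by uniquely mapped reads in place of reads in genes moves every HT22 ratio down, to medians of -0.11 for the members and -0.27 for all genes, with the same gap of 0.16. The sign of the members' median therefore depends on the scaling. A change of scale shifts all ratios nearly alike, so the gap stays the same by construction and is not a check. For the same reason 59 of the 78 members were above the median of all genes under either scaling. With reads in genes, 34 of 78 intervals lay above 0, where 22.4% of genes did, and 12 lay below 0, where 32.7% did. With uniquely mapped reads the counts were 6 above and 39 below, where 8.66% and 65.6% of genes lay, so the share of members above was near that of all genes and the share below was lower. At least 1.2-fold higher were 15 members (14.1% of genes) and at least 1.2-fold lower were 4 (19.3% of genes), with reads in genes. All ratios below use reads in genes, and are best read against the all-gene median of -0.05.

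In complex I of HT22, 30 of 35 measured members were above the all-gene median, and their own median was 0.13. Ndufa5 and Ndufa13, accessory subunits of the matrix arm and of the membrane arm, were the highest by interval. Ndufa5 had 1921 reads in HT22_CON and 1813 in HT22_SUP, a log2 ratio of 0.40 (0.31 to 0.49). Ndufa13 had 1616 and 1506 reads and a log2 ratio of 0.38 (0.28 to 0.48). Against these, Ndufa9, an accessory subunit near the ubiquinone site, had 2090 and 1271 reads and a log2 ratio of -0.23 (-0.33 to -0.13). Ndufb3 had 916 and 540 reads and a log2 ratio of -0.28 (-0.43 to -0.12). Ndufv1, the core subunit that binds NADH and flavin, was also lower, at -0.14 (-0.22 to -0.06). Ndufa9, Ndufb3 and Ndufv1 were thus below the all-gene median in a complex of which most members were above it.

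In complex II 2 of the 4 genes were above the all-gene median, and the median of the complex was -0.06. Sdha had 5033 and 3002 reads and a log2 ratio of -0.26 (-0.33 to -0.20), while Sdhb, the iron-sulphur subunit, had 3432 and 2546 reads and a log2 ratio of 0.05 (-0.02 to 0.13). Complex III was split by subunit. Uqcrfs1 had 3374 and 1976 reads and a log2 ratio of -0.29 (-0.37 to -0.21). Uqcrc2 had 2535 and 1558 reads and a log2 ratio of -0.22 (-0.31 to -0.13). The other 7 genes of complex III were above the all-gene median, among them Uqcr11 at 0.29 (0.13 to 0.45), Uqcrq at 0.27 (0.19 to 0.34) and Uqcrb at 0.24 (0.11 to 0.38), which are small subunits. The longer Cyc1, at 0.14 (0.08 to 0.20), and Uqcrc1, at 0.06 (-0.01 to 0.12), were above that median too.

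In complex IV of HT22, 9 of 13 measured members were above the all-gene median, and 5 intervals lay above 0 with reads in genes as the scale. These 5 were subunits of the main isoform set: Cox6b1, with 3418 and 2988 reads and a log2 ratio of 0.29 (0.22 to 0.36), Cox6a1 at 0.26, Cox8a at 0.22, Cox4i1 at 0.19 and Ndufa4 at 0.19. Cox7a2l was the only member of the complex with an interval below 0, at -0.09 (-0.16 to -0.03). In complex V 11 of 17 members were above the all-gene median. Atp5g1 had 608 and 644 reads and a log2 ratio of 0.57 (0.41 to 0.73), the highest of all members, with a near-identical copy elsewhere. Atp5g3, from which the same mature protein is made, had 8339 and 5438 reads and a log2 ratio of -0.13 (-0.18 to -0.08). The share of Atp5g1 in the summed RPKM of the 3 genes was accordingly 6.97% in HT22_CON and 10.9% in HT22_SUP, a quantity that does not depend on the scaling. Atp5e, the epsilon subunit, had 1548 and 1489 reads and a log2 ratio of 0.43 (0.32 to 0.53). Atp5o, the subunit that confers oligomycin sensitivity, had 1568 and 1473 reads and a log2 ratio of 0.39 (0.29 to 0.50). The alpha subunit Atp5a1 was lower, with 16355 and 10516 reads and a log2 ratio of -0.15 (-0.19 to -0.12), and the beta subunit Atp5b was at 0.02 (-0.01 to 0.05).

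The split in HT22 went with coding length. The 59 members under 700 coding bases had a median of 0.19 and the 19 longer ones a median of -0.03, where measured genes under 700 bases had -0.03 and longer ones -0.05. Across the 78 members the rank correlation of log2 ratio and coding length was -0.39, while across 10854 genes it was 0.22. That value includes the longest of 10 length groups, with a median of 0.29 and no member. Over shorter lengths the medians of all genes also declined, from -0.002 in the shortest group, where the 52 members had 0.19, to -0.12 in the fourth. In hippocampus the 2 values had the same sign, 0.30 across 82 members and 0.35 across 13392 genes. These correlations are across genes that share libraries and depth, and genes are not replicates. Against genes of the same length group the HT22 median of the members was 0.16, and against genes of the same length and GC content it was 0.14. Neuronal markers were higher in HT22_SUP, 6 of 6 measured ones with a median of 1.34, but markers of other brain cells were higher too. The 2 measured oligodendrocyte markers had a median of 0.95 and the 3 astrocyte markers one of 0.89, with 1 astrocyte marker below 0. The only measured choroid plexus marker, Aqp1, was lower at -0.52. The 644 hippocampus-rich genes stood at 0.336% of their hippocampal level in HT22_CON and 0.801% in HT22_SUP. Their part in the members' ratios was not tested.

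**Figure D4:**
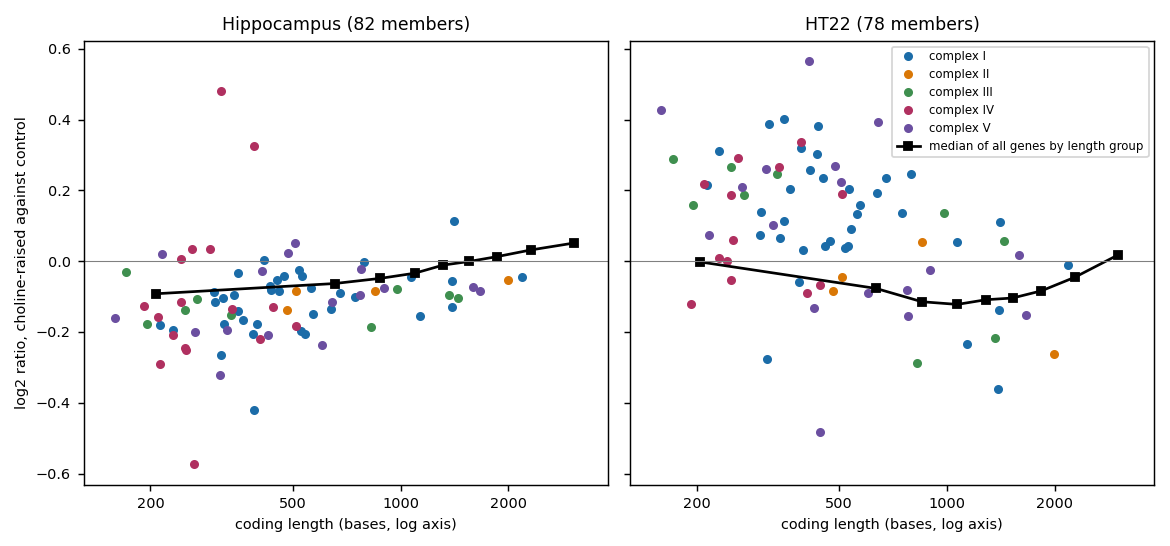
Log2 ratio of each measured member against its coding length (log axis), coloured by complex, with the median of all measured genes by length group as black squares (the group of the longest coding sequences is outside the axis). In hippocampus the rank correlation with coding length is 0.30 across members and 0.35 across all genes. The members' median there lies below that of all genes in every length group that holds members. In HT22, scaled by reads in genes, members under 700 bases have a median of 0.19 and longer ones of -0.03.

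The 2 choline comparisons share no library, so their calls can be set side by side. Of the 76 members measured in both, 48 had intervals below 0 in hippocampus and 12 had intervals below 0 in HT22. All 12 of the latter were among the 48, which is 100% of the HT22 list and 25% of the hippocampus list. Over all 10234 genes measured in both, 24.7% of those below 0 in HT22 were below 0 in hippocampus, and 41.2% of those below 0 in hippocampus were below 0 in HT22. The members' share was thus above that of all genes for the HT22 list and below it for the hippocampus list, but the list sizes differ too. Intervals lay below 0 in hippocampus for 48 of 76 members and 1988 of 10234 genes. In HT22 they did so for 12 of 76 members and 3326 of 10234 genes. These sizes alone push the first share up and the second down, so the shares do not measure overlap by themselves. The 12 included Ndufv1, Ndufa9 and Ndufb3 of complex I, Sdha and Sdhd of complex II, Uqcrfs1 and Uqcrc2 of complex III, Cox7a2l of complex IV, and Atp5a1, Atp5f1 and Atp5g3 of complex V. They include subunits that bind substrates or redox groups as well as accessory ones. In the opposite direction, 22 members were below 0 in hippocampus and above 0 in HT22, 64.7% of the 34 above 0 in HT22 and 45.8% of the 48 below 0 in hippocampus. Over all genes 360 did so, 15.3% and 18.1% of the 2 lists. Here too the list sizes differ, with intervals above 0 in HT22 for 34 of the 76 members and 2349 of the 10234 genes. With 48 of the 76 members below 0 in hippocampus, shares near 64.7% and 45.8% come from the list sizes alone. Ndufv3 was the only member above 0 in both. No test of the overlap was made, and the HT22 calls use reads in genes as the scale. With uniquely mapped reads, 6 of the 78 members measured in HT22 had intervals above 0 there and 39 had intervals below 0.

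Genes that work with the subunits were described from lists in the same way. For comparison with every list below, 18.8% of all measured genes had intervals below 0 and 20.9% above 0 in hippocampus. In HT22 these shares were 32.7% and 22.4%. Several lists lay near or under these shares, and no list was tested. Assembly factors, which build the complexes, had medians of -0.08 in hippocampus (40 measured, 10 intervals below 0 and 3 above) and -0.04 in HT22 (39 measured, 9 below and 6 above). In HT22 Tmem70, an assembly factor of ATP synthase, had 950 and 526 reads and a log2 ratio of -0.37 (-0.53 to -0.21), and Acad9, an assembly factor of complex I, had 1396 and 802 reads and a log2 ratio of -0.31 (-0.44 to -0.19). Genes of cytochrome c, ubiquinone synthesis and ATP export had medians of -0.09 and -0.07, each over 18 measured genes, with 8 below and 1 above in hippocampus and 9 below and 3 above in HT22. Cycs, the cytochrome c gene, was higher in HT22_SUP, with 205 and 206 reads and a log2 ratio of 0.49 (0.21 to 0.78). The 18 citric acid cycle genes had medians of -0.07 and -0.11, with 9 and 10 intervals below 0 and 3 and 2 above.

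Regulators of respiratory chain genes had medians of 0.03 in hippocampus (17 measured, 0 below and 5 above) and -0.02 in HT22 (16 measured, 6 below and 3 above). Gabpa, the DNA-binding part of GABP, had 953 and 1146 reads in hippocampus, a log2 ratio of 0.32 (0.20 to 0.45), and 1682 and 989 reads in HT22, a log2 ratio of -0.28 (-0.40 to -0.17). Esrra, a nuclear receptor that acts on these genes, had 492 and 246 reads in HT22 and a log2 ratio of -0.51 (-0.74 to -0.29). Hcfc1 and Pprc1, a coregulator and a relative of the coactivator PGC-1alpha, were higher in HT22_SUP at 0.39 and 0.48. Mitochondrial import and outer membrane genes, many of them short, had medians of -0.02 in hippocampus and 0.08 in HT22 (23 measured in each, 8 below and 5 above, then 2 below and 11 above). In HT22 the import subunit Tomm7 was at 0.24 (0.10 to 0.38). In HT22 5 of these 23 genes were below 0, against 13 of the 18 citric acid cycle genes and 58.1% of all 10854 measured genes. These signs use reads in genes as the scale, and the 2 lists differ in median coding length (742.5 and 1362 bases).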

How the data were processed

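Members and lists were chosen with earlier results of these data known. Adapter and quality trimming was done by the authors in Trim Galore, alignment to mm10 in TopHat2 (at most 2 mismatches, mapping quality of 4 or more) and counting of read pairs in HTSeq, per the series' design text. The deposited count columns are raw reads per gene, per the file headers. The authors' RPKM columns divide by coding length and by the uniquely mapped reads named in the file headers. The deposited log2 columns (fold change, average expression) and the p-value and FDR columns are the authors' edgeR output, called at 0.05. In HT22 the authors' log2 fold change differed from the ratio of the deposited counts by over 0.1 in 4078 of 10854 genes, so it was not used. In hippocampus 0 of 13392 genes differed so.

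Counts were scaled by TMM (edgeR 4.0.16, R 4.3.3). Log2 ratios used a prior count of 2 and 50 or more reads in at least 1 library. Intervals are exact conditional (Clopper-Pearson) ones at 95%, computed with scipy 1.17.1. Reads are not independent molecules, so they cover counting error only. Every result is a description without a p-value, since each group is 1 library, and functions were tested on simulated data. Any member could be named, but 1 is neither reported individually nor drawn by name here. Full values were given for tissue isoforms, the 6 highest and 6 lowest members by the bound nearest 0, the top member per complex, the 5 highest and lowest between sources, and up to 3 genes per related list. GC content and copies came from GENCODE M21 with blastn 2.17.0. No protein sequences were used. Alternatives were other scalings (DESeq2 1.42.0 size factors among them), prior counts, read minimums, length and GC groups, and leaving out members with copies.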

Additional observations from a re-analysis of the deposited data

How the results depend on the processing

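No paired analysis was possible because each group holds 1 library, and for the same reason no library could be left out. In hippocampus the median of the members kept its sign under every alternative run, between -0.12 and -0.04. The count of intervals below 0 (49) was 26 against genes of like length and 24 against genes of like length and GC, and that above 0 (3) was 7 under both. Members at least 1.2-fold lower there (5) numbered 3 with a prior count of 10, 1 with a minimum of 200 reads, and 2 with each correction and without members that have copies. Members at least 1.2-fold higher (2) numbered 1 with the minimum of 200 reads and without members that have copies.

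In HT22 the median of the members turned from 0.11 to -0.11 when scaled by uniquely mapped reads. Intervals above 0 then numbered 6 in place of 34, where 8.66% of all genes lay. Intervals below 0 numbered 39 in place of 12, where 65.6% of all genes lay. Members at least 1.2-fold higher numbered 1 in place of 15, and those at least 1.2-fold lower 19 in place of 4. The latter numbered 2 with each correction and without members that have copies, where 9 were at least 1.2-fold higher. Between HT22 and hippocampus, the median fell from 0.40 to 0.10 against genes of like length, and 2 members in place of 5 were at least 2-fold higher. With a minimum of 200 reads 4 in place of 9 were at least 2-fold lower. Except for the intervals with uniquely mapped reads, the shares of all genes called were not computed under the alternatives. Those shares can move with the setting too, so the changed counts are not results about the members alone. Counts under 100 reads limit the rare isoforms and the members with copies. For all of these, the cause was not tested.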
